A study of Drosophila melanogaster with 6 samples.

Results

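Ythdf and Fmr1 are the genes of an m6A reader of the fly cytoplasm and of the RNA-binding protein that the study's title sets beside it. Every site listed for either mRNA was taken from the C-to-T list and the truncation list. The members were the sites to which the authors gave the name Fmr1 or CG6422, the older name of Ythdf, or that lay within the annotated bounds of either gene on its strand. By name and by position the same 24 sites were found, out of 29142 in both lists, with 8 on Ythdf (FBgn0039261, chromosome 3R, 25033876 to 25039249, minus strand) and 16 on Fmr1 (FBgn0028734, chromosome 3R, 10101420 to 10110121, minus strand). Coordinates are those of dm6, counted from 1.

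The data came from untreated S2R+ cells, a cultured Drosophila line with traits of haemocytes, the insect blood cells. Poly(A) RNA was fragmented and bound by an anti-m6A antibody in 4 replicate immunoprecipitations (IPs), set against 1 IP without crosslinking and 1 library of fragmented mRNA that served as input. In miCLIP, the method used, the antibody is crosslinked to RNA, and reverse transcriptase either reads through the crosslink with a C-to-T change or stops there, which leaves a truncated cDNA. The deposited values are combined over the IPs that share a site, and nothing in the labels says whether the IPs came from separate cultures. No value below therefore has an SD or a number of replicates, and the 2 control libraries are not analysed here, so no site was set against a background library.

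N6-methyladenosine, or m6A, is laid on mRNA by a nuclear complex built around the methyltransferases Mettl3 and Mettl14, and it is recognised by proteins with a YTH domain. The fly has a nuclear YTH protein, Ythdc1, and a cytoplasmic one, Ythdf. Fmr1 is the fly relative of the human fragile X protein, which binds mRNAs through KH domains and represses their translation, also at synapses. The lists show sites called on the mRNAs that encode Ythdf and Fmr1, and not what these proteins bind. Whether each listed site is m6A was not tested.

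Both mRNAs carried the 2 kinds of evidence at 1 position each, but in different parts of the transcript by the annotation used here. The authors' own labels put both positions in the 5' UTR. Ythdf had 1 converted C in its 5' UTR, directly downstream of its tallest truncation, and Fmr1 had its converted Cs near the far end of its longest 3' UTR. A pair here means a converted C whose neighbour 1 nt upstream on the transcript is an A listed as truncated. Each gene had 1 pair, against a pair in exons of 6.65% of the 13968 nuclear protein-coding genes. A pair was usual among genes with an exonic C-to-T site, since 929 of those 1300 genes had one. The Ythdf pair was in the 5' UTR, where 5.81% of the 13968 genes had one, and the Fmr1 pair in the 3' UTR, where 0.623% did. With only sites in 4 IPs neither gene had a pair, and with STAR alignments alone Fmr1 had none, since its converted Cs were not given by STAR. Both genes had exonic C-to-T sites and exonic truncation sites, against 9.31% and 27.2% of all genes, and both had coding truncations, against 19.2%. These shares mix expression with methylation, since an mRNA must be present to be seen. Ythdf had 7 exonic sites in all, more than 69.8% of the 3807 genes with any exonic site, and Fmr1 had 15, more than 87.0% of them. The median such gene had 3.

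**Figure D1:**
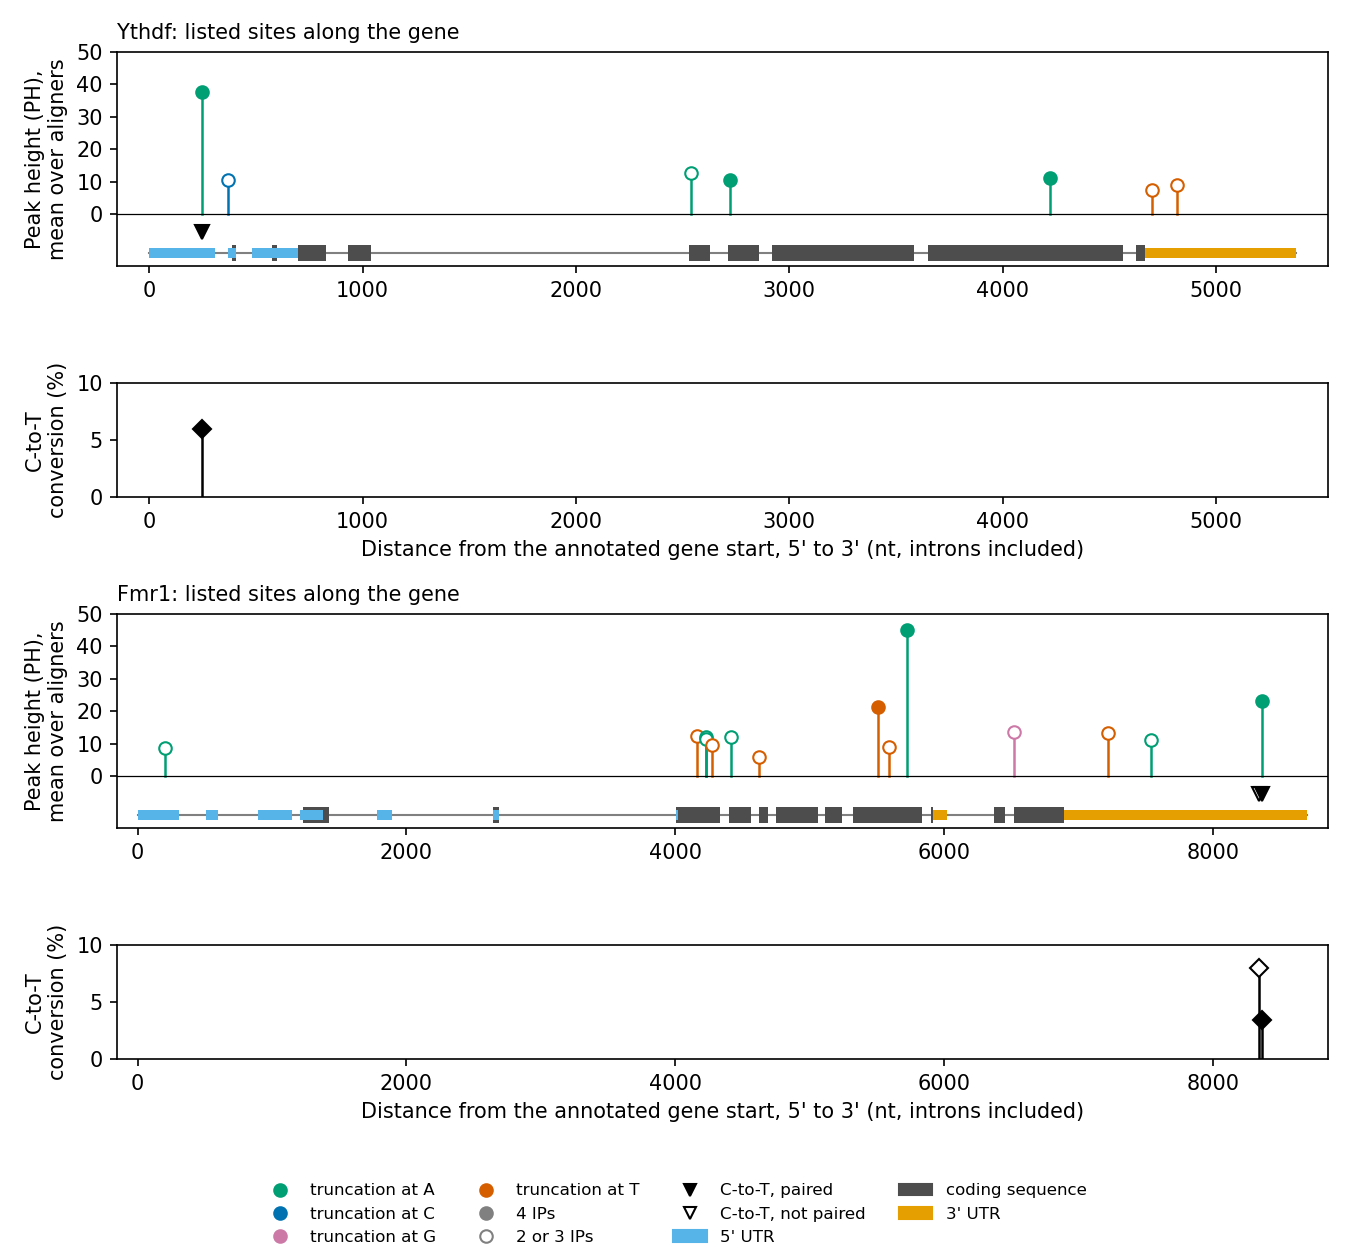
Sites along Ythdf (upper 2 panels) and Fmr1 (lower 2 panels), by distance in nt from the annotated gene start with introns included; stems give the peak height of truncation sites, coloured by base and filled where 4 IPs share them, and diamonds the percent of tags converted at C-to-T sites, with merged exons of all isoforms drawn below. The Ythdf pair stands at the left, in the 5' UTR (height 37.6, conversion 5.99%), and the Fmr1 pair at the far right, in the 3' UTR (height 23.25, conversion 3.38%).

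In Ythdf the converted C lay at chromosome 3R, 25039001, in the 5' UTR within exon 1. It was found in 3 IPs with Novoalign and BWA and in 2 with STAR. Novoalign gave 198 unique tags, of which 12 carried the change, STAR 164.5 tags with 10.5, and BWA 185.3 tags with 11, each a mean over IPs. The percent converted was 5.87, 6.36 and 5.74 in the same order of aligners, with a mean of 5.99%. The 3 alignments therefore gave almost the same value. Tags summed by Novoalign over the 3 IPs that share the site were 36 converted of 594, which is 6.06% with a 95% Wilson interval of 4.41% to 8.28% that covers counting error only. Among all 3672 C-to-T sites in 5' UTRs, 76.6% had a lower mean conversion than its 5.99% (median 3.85%).

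Sites with similar coverage were also compared, a setting chosen after the values were seen, because listed conversion varied with the number of tags: in 3' UTRs its median was 8.86% at sites with coverage like the less covered Fmr1 site and 4.0% at sites like the more covered one. Among the 780 sites in 5' UTRs with 0.8 to 1.25 times as many tags as the Ythdf site, which had 183, the median conversion was 4.24%, and 86.7% of them lay below the Ythdf site. By either comparison the Ythdf site was in the upper part of the list.

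Directly upstream, at 25039002, stood the tallest truncation of the gene, at A, seen in 4 IPs with each aligner. Its peak height (PH, the height of the pile of truncated tags that the CTK toolkit gives) was 39.75 with Novoalign, 37.75 with STAR and 35.25 with BWA. The mean of 37.6 was above 78.4% of the 5774 truncations at A in 5' UTRs, whose median was 20.2. Among the 1803 truncations of 5' UTR pairs, however, it sat in the middle, above 51.1% of them (median 37). Pairing itself was common there, since 49.1% of converted Cs in 5' UTRs had it, and A was the base at 73.3% of the truncations.

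The pair was present in 3 of the 4 annotated Ythdf isoforms. In FBtr0084794 and FBtr0084795 the converted C was nucleotide 83 of the mRNA, and in FBtr0334507, which starts further upstream, it was nucleotide 249. The start codon began 74 nt further along in FBtr0084794 and FBtr0334507, and 213 nt further along in FBtr0084795. The isoform FBtr0113281 starts downstream of the pair, at 25038768, and cannot carry it.

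The coding sequence of Ythdf held 3 truncations, all at A and none with a converted C beside it. They lay at 25036711 (PH 12.5, 2 IPs), 25036527 (PH 10.6, 4 IPs) and 25035025 (PH 11, 4 IPs), and each was given by all 3 aligners, as 56.2% of truncations were, and lay in all 4 isoforms. In FBtr0084794 these were codons 84, 117 and 575 of 700. Truncations at A made up 37.4% of coding truncations in the series, and the median height of those was 12.6, so the 3 heights lay close to it. A converted C directly downstream was listed for 2.97% of coding truncations at A. Relative to its null value, the height CTK expects there, the site at 25035025 stood at 37.1 times, that at 25036527 at 25.6 times and that at 25036711 at 15.9 times. The null values were all below 1, and the p-value listed with Novoalign was smaller at 25036527 (3.29e-14) than at 25035025 (4e-13), so the 2 measures order these sites differently.

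In the 3' UTR of Ythdf lay 2 truncations, both at T, at 25034550 (32 nt after the stop codon) and 25034430 (152 nt after it). Their heights of 7.5 and 9 were low, above 3.49% and 10.8% of the 1374 truncations at T in 3' UTRs. Each was found in 2 IPs, the first with Novoalign and BWA and the second with Novoalign alone. T was the base at 50.2% of truncations in 3' UTRs.

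The remaining Ythdf site was an intronic truncation at C, at 25038882, exactly 3 nt before exon 2. It was given by Novoalign alone, in 2 IPs, with a height of 10.5. Fmr1 had a counterpart, an intronic truncation at G at 10103603, directly before its last exon, given by Novoalign alone in 2 IPs with a height of 13.5. Positions of this kind recur in the list: 34.4% of the 1842 intronic truncations lay 1 to 3 nt before an annotated exon, with 16% at 3 nt and 14.1% at 1 nt. Those at 3 nt were at C in 75.9% of cases, and those at 1 nt were at G in 98.5%. Genome sequence was not used, so these shares were not set against the bases that stand before exons in general. A single aligner was usual too, at 54.6% of intronic truncations. An intronic truncation was listed for 6.54% of genes.

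In Fmr1 both converted Cs lay in the 3' UTR, within the last exon, and both were found in 2 IPs with Novoalign and BWA and were not given by STAR. The same combination of aligners held for 37.1% of the C-to-T list, while 43% had all 3, as the Ythdf site did. The paired C was at chromosome 3R, 10101756. Novoalign gave it 178.5 tags with 6 converted (3.35%) and BWA 175 tags with 6 converted (3.41%), each a mean over IPs. The 2 alignments did not differ beyond a few tags. Summed over the 2 IPs that share the site, 12 of 357 tags by Novoalign were converted, which is 3.36% (95% Wilson interval 1.93% to 5.78%). Its mean conversion over aligners, 3.38%, was above 55.5% of the 629 C-to-T sites in 3' UTRs (median 2.85%). Against the 80 of them with similar coverage it was above 23.8% (median 4.0%), so its place in the list depends on the coverage it is compared at.

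The truncation of this pair, at A at 10101757, was the second tallest of Fmr1 and was found in 4 IPs with each aligner. Its height was 23.5 with Novoalign, 23 with STAR and 23.25 with BWA. It was above 78.7% of the 1090 truncations at A in 3' UTRs (median 14.2), and above 38.7% of the 124 truncations of 3' UTR pairs (median 25.8). Truncation marked the position in more IPs than conversion did in both genes, at 4 against 3 in Ythdf and 4 against 2 in Fmr1, and pairs in general lean the same way. Among 5' UTR pairs 63.7% of the truncations and 42.8% of the converted Cs were in 4 IPs, and among 3' UTR pairs 52.4% and 40.3%. In 3' UTRs 19.7% of converted Cs were paired, and A was the base at 39.8% of truncations.

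The other converted C of Fmr1, at 10101780, lay 23 nt upstream of the paired truncation and 803 nt downstream of the nearest truncation on its other side. Novoalign gave 71 tags with 5 converted (7.42%) and BWA 70.5 tags with 5.5 converted (8.43%), tags and percents each averaged over IPs. The sum over IPs was 10 of 142 tags by Novoalign, or 7.04% (95% Wilson interval 3.87% to 12.5%). The mean of the listed percents over aligners, 7.92%, was above 82.5% of C-to-T sites in 3' UTRs. That mean was above only 30.2% of the 43 with similar coverage, whose median was 8.86%. Its 5.25 converted tags were among the fewest listed in 3' UTRs, where 7.0% of sites had fewer.

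**Figure D2:**
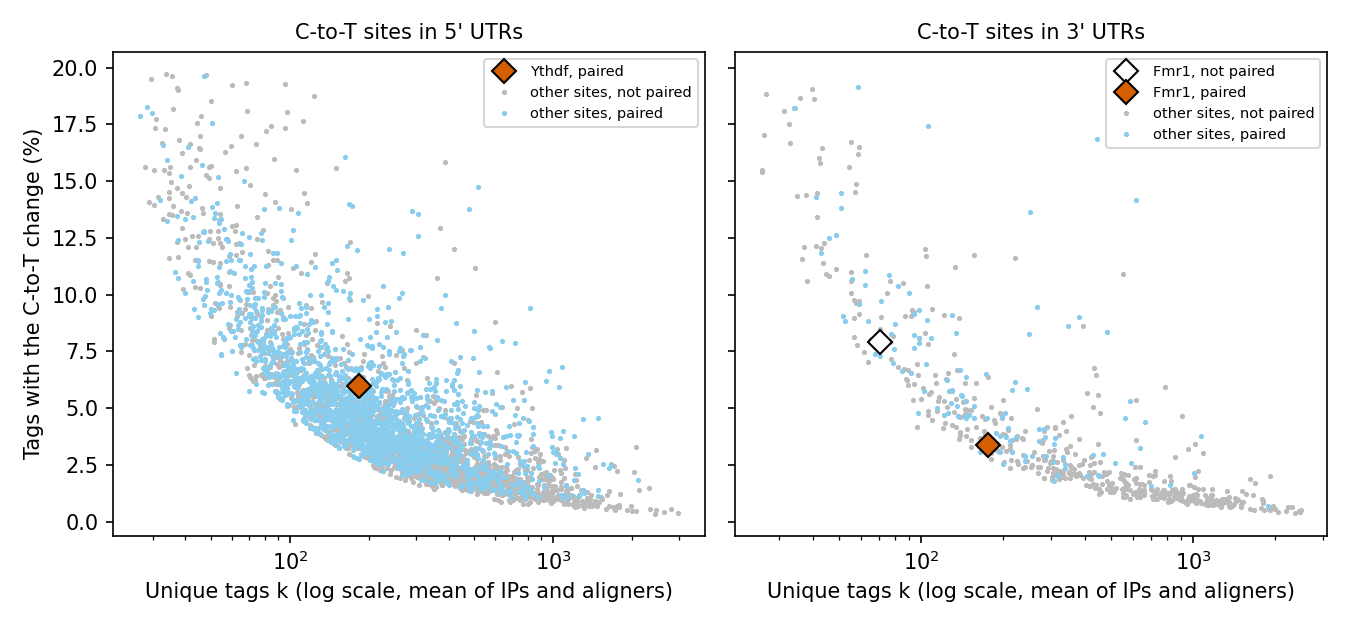
Percent of tags with the C-to-T change against the number of unique tags (log scale) for every C-to-T site in 5' UTRs (left) and 3' UTRs (right), each point a site with values averaged over IPs and aligners. The Ythdf site (183 tags, 5.99%) stands above most 5' UTR sites of like coverage, while both Fmr1 sites (70.8 tags, 7.92%, and 177 tags, 3.38%) lie below the median of 3' UTR sites of like coverage.

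For these Fmr1 sites the authors' label differed from the annotation used here, and why it did was not tested. The authors labelled both converted Cs and the paired truncation as 5' UTR, whereas in Ensembl release 115 the nearest 5' UTR of the gene is 4345 nt away from the paired C. The 5 isoforms of Fmr1 that reach these positions, of 11 annotated, all have them in the 3' UTR, 1476 nt after the stop codon for the paired C. The mRNA ends 336 nt further on in FBtr0082198, FBtr0082200 and FBtr0308123, and 180 nt further on in FBtr0301386 and FBtr0335049. The remaining 6 isoforms end upstream and cannot carry the pair. Labels of this kind were rare: 6.52% of the C-to-T sites and 6.17% of the truncations annotated as 3' UTR were labelled 5' UTR by the authors. For the 21 other sites of both genes the label and the annotation were the same. Under the annotation, Fmr1 was among the 6.92% of genes with exonic C-to-T sites that had all of them in the 3' UTR. Ythdf was among the 59.6% that had all of them in the 5' UTR. With 1 such site in Ythdf and 2 in Fmr1, having all of them in the same part says little about layout. Of the 1300 genes with such sites, 36.3% had 1 and 52.3% had 2 or fewer.

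The 3 converted Cs were compared on the tags of the IPs in which each was called, 3 for Ythdf and 2 for each Fmr1 site (Fisher's exact test, two-sided, Benjamini-Hochberg adjusted over 3). IPs without a call do not enter, and listed conversion varied with coverage, which was 594, 142 and 357 tags for the Ythdf, the unpaired and the paired Fmr1 site. The values therefore compare the listed tags, and whether conversion differed over all 4 IPs was not tested. Intervals and p-values cover counting error only, and not the spread between IPs. The test takes all tags as separate, although the 2 Fmr1 sites lie close together in the same exon and may share tags. Ythdf at 6.06% minus the paired Fmr1 site at 3.36% gave 2.70 percentage points (Newcombe interval -0.23 to 5.34, Fisher's exact adjusted p = 0.134). The unpaired Fmr1 site at 7.04% minus the paired one at 3.36% gave 3.68 points (-0.31 to 9.30, Fisher's exact adjusted p = 0.134). Ythdf at 6.06% minus the unpaired Fmr1 site at 7.04% gave -0.98 points (-6.66 to 2.89, Fisher's exact adjusted p = 0.699). None of the 3 passed 0.05, which does not show that the positions are alike.

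The coding sequence of Fmr1 held 9 truncations, all in exons shared by the 11 isoforms and none with a converted C directly downstream. The tallest site of the gene was among them, at A at 10104401. Its height was 47.5 with Novoalign, 47 with STAR and 40.5 with BWA, in 4 IPs each. The mean of 45 was above 92.8% of the 3402 coding truncations at A and 61.9 times its null value, and 246 coding truncations at A were as tall. Lack of a converted C was usual for such sites, since 12.6% of those 246 had one directly downstream. In FBtr0308123, the isoform with the longest coding sequence, it was base 3 of codon 544 of 729.

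In the same exon, number 10 of 12 in FBtr0308123, lay truncations at T at 10104615 and 10104532. The first had a height of 21.25 in 4 IPs, above 81.9% of the 3739 coding truncations at T. The second had a height of 9 in 2 IPs. Exon 5 held 4 truncations in a row, with gaps of 64, 1 and 47 nt between neighbours. They were at 10105958 (T, PH 12.5), 10105894 (A, PH 12), 10105893 (A, PH 11.3) and 10105846 (T, PH 9.67). A further truncation at A lay in exon 6 at 10105708 (PH 12, 3 IPs), and a truncation at T in exon 7 at 10105499, with the lowest height of all 21 truncations (PH 6, BWA alone). T was the base at 5 of the 9 coding truncations of Fmr1 and A at 4, against 41.1% at T and 37.4% at A over the series.

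The neighbouring sites 10105894 and 10105893 came from different alignments, 10105894 from Novoalign and BWA in 2 IPs and 10105893 from STAR in 3 IPs. Their heights were 12 with Novoalign and with BWA, and 11.3 with STAR. Among the 452 places in the list where truncations stood 1 nt apart, 57.7% had no aligner in common. Whether they are 1 position or neighbours was not tested.

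The untranslated ends of Fmr1 held 3 more truncations besides the pair. The only site in its 5' UTR was at A at 10109920, in exon 1 of 6 of the 11 isoforms and 202 nt from the mRNA start in FBtr0082197. Its height was 9.5 with Novoalign and BWA and 7 with STAR. The mean of 8.67 was above 6.89% of truncations at A in 5' UTRs. By the annotation, the 5' UTR of Fmr1 thus had a low truncation and no C-to-T site. In the 3' UTR, a truncation at T at 10102899 had a height of 13.3, and it lay in 9 of the 11 isoforms, 333 nt after the stop codon. A truncation at A at 10102583 had a height of 11, was given by STAR alone, and lay in 6 isoforms, 649 nt after the stop codon.

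**Figure D3:**
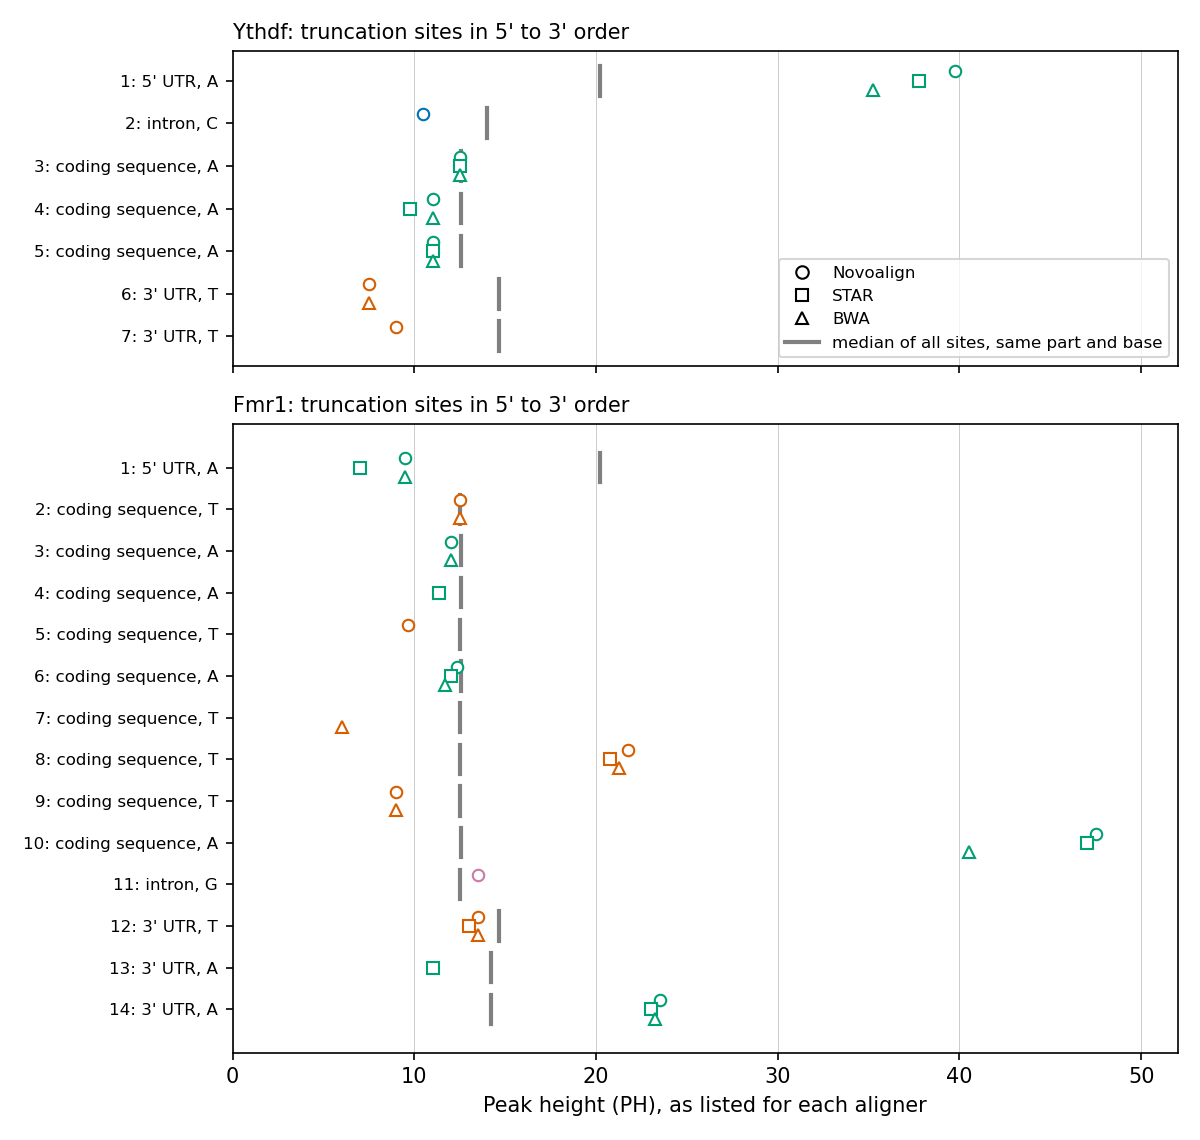
Peak height of each truncation site of Ythdf (upper) and Fmr1 (lower) in 5' to 3' order, as listed for Novoalign (circles), STAR (squares) and BWA (triangles), coloured by base as in the gene maps, with grey bars at the median of all sites of the same part and base. Ythdf site 1 (37.6) and Fmr1 sites 8, 10 and 14 (21.25, 45 and 23.25) lie well right of their bars, and most others lie at or left of them.

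Across both genes 11 of the 21 truncations were at A and 8 at T, against 51.9% at A and 32.5% at T over the list. All 4 IPs shared 6 of them, against 27.4% of all truncations. Of these 6, 5 were at A, and A was the base at 64.7% of all truncations in 4 IPs. Both paired truncations were among the 6. Heights had a median of 10.6 in Ythdf (7.5 to 37.6) and 12 in Fmr1 (6 to 45), against 14.5 over all 22917 truncations. Apart from 1 tall site in Ythdf and 3 in Fmr1, the truncations of both genes thus lay below the median of the list.

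Counted by length, the genes differed in where truncations were dense. Fmr1 had 4.49 truncations per 1000 nt of coding sequence, above 88.2% of the genes with an exonic site, and Ythdf had 1.43, above 66.9% of them. Over all those genes together the density was 1.09, and among the 2683 with a coding truncation the median was 1.32. In 5' UTRs the order was the other way, at 1.8 per 1000 nt in Ythdf and 1.02 in Fmr1, above 45.8% and 41.2% of genes, against 3.83 over all genes with a site. Of the 3803 genes ranked there, 2320 had a truncation in the 5' UTR, and their median was 5.29, above both genes. In 3' UTRs Ythdf had 2.83 and Fmr1 1.56, above 83.3% and 77.4% of genes, against 0.854 over all. Most of those genes have no truncation in the 3' UTR, and among the 1218 that do the median was 2.98, above both genes. With 1 to 9 sites behind each value these densities are descriptions and were not tested.

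**Figure D4:**
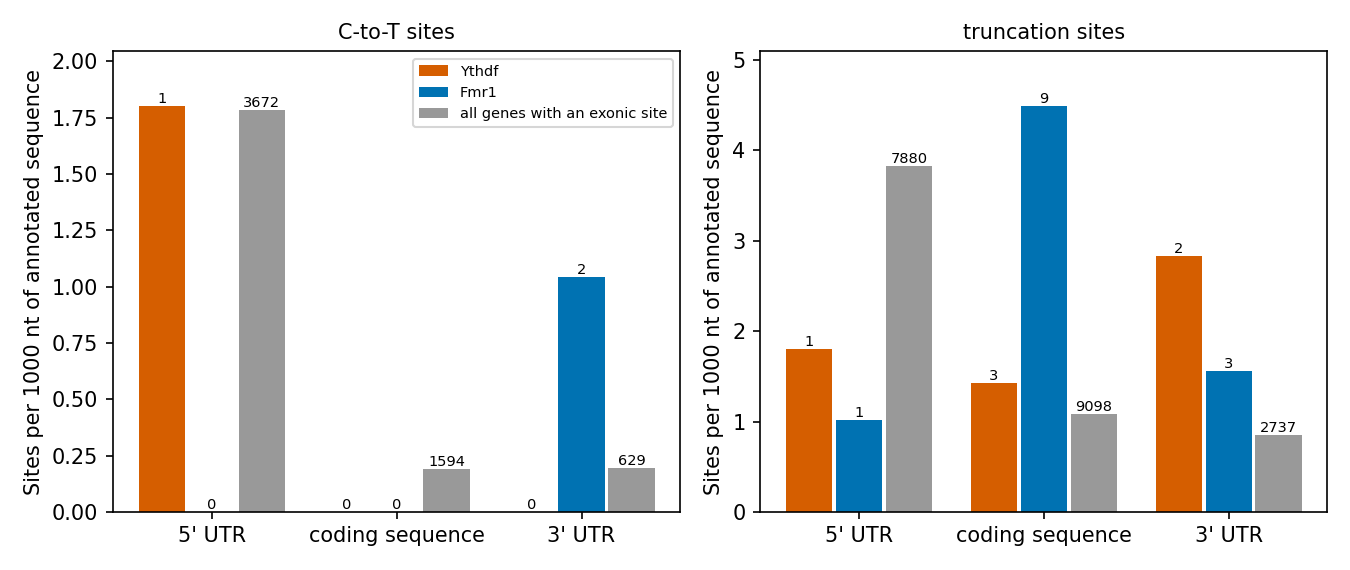
C-to-T sites (left) and truncation sites (right) per 1000 nt of annotated 5' UTR, coding sequence and 3' UTR in Ythdf, in Fmr1 and over all genes with an exonic site, with the number of sites printed on each bar. Fmr1 has its C-to-T sites in the 3' UTR (1.04 per 1000 nt) and its truncations mostly in coding sequence (4.49), while Ythdf has its C-to-T site in the 5' UTR (1.8).

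Genes with the most similar layout were found by the summed absolute difference of 9 counts (C-to-T and truncation sites in each transcript part and in introns, and pairs) over 3914 other genes. Nearest to Ythdf were AP-1sigma, which encodes a clathrin adaptor subunit, at a distance of 1, the gene FBgn0022288 at a distance of 2 and HINT1, which encodes a histidine triad protein, at a distance of 3, which 14 genes shared. AP-1sigma had the same counts but no pair, at a mean of 39 tags against 183 at the Ythdf site. For Fmr1 the nearest lay at a distance of 5, shared by 9 genes: the ribosome assembly factor gene LTV1, the pseudouridine synthase gene Nop60B and KdelR, which encodes the receptor that returns proteins to the endoplasmic reticulum. KdelR also had 2 C-to-T sites in the 3' UTR and 1 pair, and 8 coding truncations.

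The gene lists that follow were chosen with earlier results of these data known, so their counts are descriptions and enrichment was not tested. Among 9 genes of the m6A machinery, 6 had exonic sites and 4 had a pair, against 27.3% and 6.65% of all genes. The median over all 9, genes without sites included, was 2 sites. Ythdc1, the nuclear reader, had 33, fl(2)d, a subunit of the methyltransferase complex, 16, and nito, another subunit, 8, with Ythdf next at 7. The catalytic subunits Mettl3 and Mettl14 and the complex subunit vir had none. Ythdf was thus the reader with fewer sites, at 1 C-to-T site against 17 in Ythdc1, and both had pairs (1 and 8).

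Of 17 genes for proteins that bind Fmr1 or share RNA granules with it, 14 had exonic sites and 6 had a pair, against 27.3% and 6.65% of all genes. The median over all 17, genes without sites included, was 7. pAbp, the poly(A)-binding protein gene, had 69 sites, the RNA helicase genes Rm62 and bel had 50 and 21, and pairs were counted in bel (2) but in neither of the others. The C-to-T site with the most converted tags in this list was in tral, whose protein belongs to granules of repressed mRNAs. It was a paired site in the 5' UTR (chromosome 3L, 12515252, plus strand) with 33.3 of 585 tags converted (5.77%). Among 11 genes whose mRNAs have been described as Fmr1 targets in the fly or studied with it, 10 had sites and 5 had a pair, against the same shares of all genes. The median over all 11 was 17. The translational repressor gene pum had 47, the tyrosine kinase gene Abl 33 and the exchange factor gene trio 27, with 11, 6 and 5 pairs. chic, the profilin gene, named here outside the rule after its values were seen, had 22 sites (2 C-to-T and 20 truncations) and no pair. Fmr1 itself, with 15 sites, lay between the medians of the target and partner lists. Its own binding was not measured, so these counts say nothing of which of them it binds. Enrichment cannot be read from lists chosen with earlier results of these data known.

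Of 13 genes listed as markers of haemocyte-like cells or, for fz, as known to be expressed in S2R+ cells, 7 had sites, against 27.3% of all genes. They were SPARC, ush, crq, fz, Pxn, srp and vkg. Hml, NimC1, NimC4, eater, He and Col4a1 had none, and a site list cannot tell an mRNA without sites from an mRNA that is not expressed. Coverage is known only as tags at C-to-T sites, with a median of 274 over the list (20 to 2990.5), and the 3 sites of Ythdf and Fmr1, at 70.8 to 183 tags, lay below it.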

How the data were processed

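Tools listed in the submitters' processing notes are STAR 2.4.2a, Bowtie 1.1.2, cutadapt 1.8, BWA and Novoalign, with dm6 as the build. Per the column legend deposited with the files, the authors called sites with CTK from Novoalign, STAR and BWA alignments and listed those shared by 2, 3 or 4 IPs. The deposited C-to-T values are unique tags k, converted tags m and their percent, averaged by the authors over the sharing IPs. The deposited truncation values are the peak height, its null value and a p-value. How they were combined over IPs the legend does not say. Means over the aligners that gave a site were used. Where aligners gave different numbers of IPs, the highest was used. All converted sites are listed at a false discovery rate of 0. Depth is known only as k.

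Genes and transcript parts were taken from Ensembl release 115 (BDGP6.54, the assembly of dm6), strand included. Where isoforms disagree, 5' UTR took precedence over coding sequence and that over 3' UTR. Older gene names were matched through RefSeq synonyms. Tags per site were summed over IPs as mean times number of IPs, which gave whole numbers, for the aligner with the most tags. Wilson and Newcombe intervals (95%) cover counting error only. Placing and pairing were checked on simulated sites drawn from the same annotation. Truncations were planted only for pairs, always at A and 1 nt upstream. That check could not show whether truncations at other bases or distances would be wrongly paired. Python 3.11.15, numpy 2.4.6 and scipy 1.17.1 were used.

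The members and gene lists were chosen with earlier results of these data known. By rule, the text names every site of both genes, 3 genes with the nearest layout to each, up to 3 genes with the most sites of each list and a list's strongest C-to-T site where it is paired. Genome sequence was not used here, so no sequence or motif is given.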

Additional observations from a re-analysis of the deposited data

How the results depend on the processing

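No paired analysis was possible because the values are combined over the IPs, so leaving out a replicate was not possible either. Of sites in 4 IPs, Ythdf had 0 C-to-T sites and 3 truncations and Fmr1 0 and 3. At or above the median strength of each list, Ythdf had 1 truncation and Fmr1 0 C-to-T sites and 3 truncations. Sites given by all 3 aligners numbered 4 truncations in Ythdf and 0 C-to-T sites and 6 truncations in Fmr1, and sites given by STAR 4 in Ythdf and 0 and 8 in Fmr1. The authors' part labels gave Fmr1 2 C-to-T sites in the 5' UTR and 0 in the 3' UTR, and 2 truncations in the 5' UTR. Genes with an exonic site in 4 IPs were 2110 in either list, 703 with a converted C, 2092 with a truncation and 495 with a pair, against 3807, 1300, 3802 and 929. With both sites of a pair held to the same settings, chosen after seeing the data, pairs numbered 0 in Ythdf and 0 in Fmr1 in 4 IPs. Fmr1 also had 0 pairs at or above the median strength, 0 with all 3 aligners and 0 with STAR, where Ythdf had 1 each time. Each gene had 1 pair with Novoalign, with BWA and with the other definitions of a pair. Peak heights with each aligner lay within 1.24 times the mean over aligners. For 2 truncations of Ythdf and 5 of Fmr1 only 1 aligner gave the site, so there this could not fail. Conversions with each aligner are those given above. The 3 differences in conversion used Novoalign tags, so only BWA gave other values, since STAR did not give the Fmr1 sites. With BWA the differences kept their sign, and their Fisher's exact adjusted p-values (0.168 to 0.438) stayed above 0.05. The aligners read the same libraries, so likeness between them is not independent support. A value from 1 aligner and 2 IPs, as for 5 of the 24 sites, rests on few tags, and depth away from C-to-T sites is unknown.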
